A study of Mus musculus with 6 samples.

Results

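The genes described here are 9 mouse chemokine genes, Ccl2, Ccl3, Ccl4, Ccl5, Ccl7, Ccl11, Cxcl1, Cxcl9 and Cxcl12, and Ackr3, which encodes a receptor for one of them. They are 10 of the 31053 genes in the deposited feature tables and were taken by symbol. They had been selected on the cell class that holds each gene and on its change between these same libraries. Their classes and changes are therefore a description, and no p-value is given for any of the 10.

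Chemokines are small secreted proteins that guide migrating cells through G protein-coupled receptors. Ccl2 and Ccl7 act on monocytes through Ccr2, Ccl3, Ccl4 and Ccl5 act on lymphoid and myeloid cells, and Ccl11 acts on eosinophils through Ccr3. Cxcl1 draws neutrophils through Cxcr2, Cxcl9 is induced by interferon-gamma and draws T and NK cells through Cxcr3, and Cxcl12 is made constitutively by stromal and vascular cells and acts through Cxcr4. Ackr3, also called Cxcr7, binds Cxcl12 without classical G protein signalling and removes it from the surroundings.

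The series holds 6 droplet single-cell RNA sequencing libraries made from the pancreas of R26[CA]30EYFP mice (C57Bl/6J background), whose cells had been sorted into EYFP positive and EYFP negative. In these mice the reporter at the Rosa26 locus comes into frame by chance slippage of a CA repeat, so EYFP marks scattered cells and their progeny. Both run 3 libraries were made 9 days after cerulein, a cholecystokinin analogue that over-stimulates acinar cells, injected into the peritoneum on 2 consecutive days (7 hourly doses of 50 ug/kg on each), and are called pancreatitis here. The EYFP positive and EYFP negative libraries of runs 1 and 2 came from untreated mice and are called homeostasis. Run 3 and pancreatitis cannot be told apart. The labels give neither the number nor the age or sex of the mice, nor which libraries come from separate animals, so any error given is the spread between libraries. The feature tables hold no row for EYFP, and the sort was not checked in the counts.

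After filtering, 4888 of 8582 barcodes were kept, between 187 and 1759 per library, with a median of 2560 to 7385.5 unique molecular identifiers (UMIs, each counting 1 captured RNA molecule) per cell. Haemoglobin transcripts took 20.2% and 62.6% of the deposited UMIs in EYFP positive and EYFP negative run 3, against 0.213% to 7.23% in the homeostasis libraries. Xist, expressed in female cells, was at 30.7 and 9.93 CPM (UMIs of a gene for every 1000000 UMIs of the library or class it is read in) in the pancreatitis libraries and at 357 to 1176 CPM in the homeostasis libraries. The Y-linked Ddx3y was at 51.2 and 48.6 CPM in the pancreatitis libraries and at 0 to 38.3 CPM in homeostasis, so sex also differed between runs. The positive and negative libraries of 1 run shared 18, 68 and 11 kept barcodes in runs 1, 2 and 3, while other pairs of libraries shared 0 to 2. The 68 of run 2 made up 36.4% of the kept EYFP positive cells of that run. Class levels were also computed without the shallower copy of each shared barcode and are given for Cxcl12, Ackr3 and Ccl5 in their main classes and for the Ccl2 and Ccl7 levels that moved; levels per cluster are over all kept cells.

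Promoters from 250 bases before to 50 bases after the gene start were found for 5 of the 10 genes in RefSeq on GRCm38.p6, namely Ccl3, Cxcl1, Cxcl9, Cxcl12 and Ackr3. Those of Cxcl12 and Ackr3 are shown because both genes were read mostly from endothelial-like cells, and that of Cxcl1 because its few reads were spread over several classes. They lie at chr6:117168285-117168584 (plus strand) for Cxcl12, chr1:90203730-90204029 (plus strand) for Ackr3 and chr5:90890995-90891294 (plus strand) for Cxcl1. Capitals mark motif matches.
Cxcl12: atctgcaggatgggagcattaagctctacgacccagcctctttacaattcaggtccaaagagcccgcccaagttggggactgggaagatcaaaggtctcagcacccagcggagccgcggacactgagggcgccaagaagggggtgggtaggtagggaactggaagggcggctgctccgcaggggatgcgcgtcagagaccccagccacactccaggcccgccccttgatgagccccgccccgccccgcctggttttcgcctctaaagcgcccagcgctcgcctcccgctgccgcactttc
Ackr3: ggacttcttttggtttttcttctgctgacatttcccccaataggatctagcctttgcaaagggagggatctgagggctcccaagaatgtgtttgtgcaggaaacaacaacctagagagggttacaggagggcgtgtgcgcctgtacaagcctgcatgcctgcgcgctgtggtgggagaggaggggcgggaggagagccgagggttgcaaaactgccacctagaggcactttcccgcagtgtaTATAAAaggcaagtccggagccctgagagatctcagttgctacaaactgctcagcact
Cxcl1: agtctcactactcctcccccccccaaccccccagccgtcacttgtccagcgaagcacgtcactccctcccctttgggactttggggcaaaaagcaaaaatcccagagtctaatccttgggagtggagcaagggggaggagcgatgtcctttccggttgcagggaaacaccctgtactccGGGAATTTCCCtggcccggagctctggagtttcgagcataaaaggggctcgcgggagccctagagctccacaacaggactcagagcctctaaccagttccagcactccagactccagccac
Both strands were searched for TATAAA, the NF-kB site and TTCNNNGAA, a spacing bound by STAT proteins. Ackr3 held TATAAA beginning 8 bases before its start, and Cxcl9 held it 195 bases before its start. Cxcl1 held the NF-kB site on both strands in overlapping matches 71 and 70 bases before its start. Neither the Cxcl12 nor the Ccl3 window held any of the 3 motifs, and TTCNNNGAA was in none of the 5 windows. Of all 32851 promoters of the same length, 13.6% held TATAAA, 4.51% the NF-kB site and 8.30% TTCNNNGAA.

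Each gene was assigned to a source class, the class with most of its CPM when the 6 libraries weigh equally. Classes are marker-based likenesses from clusters built without any chemokine-system gene, and they were checked against defining markers. Endothelial-like cells held 85.2% of Cxcl12 and 82.8% of Ackr3. Fibroblast-like cells held 93.1% of Ccl11, and macrophage or monocyte-like cells held 81.5% of Ccl2 and 74.7% of Ccl7. By UMIs alone the order for Ccl7 was the other way round, with 68.1% (47 of 69) in fibroblast-like and 31.9% (22) in macrophage or monocyte-like cells, 14 of the 22 in 1 cell of EYFP positive run 2. NK-like cells held 63.8% of Ccl4, T-like cells 57.8% of Ccl5, B-like cells 45.7% of Ccl3, fibroblast-like cells 38.1% of Cxcl1, and an unnamed cluster of 52 cells 47.9% of Cxcl9.

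**Figure D1:**
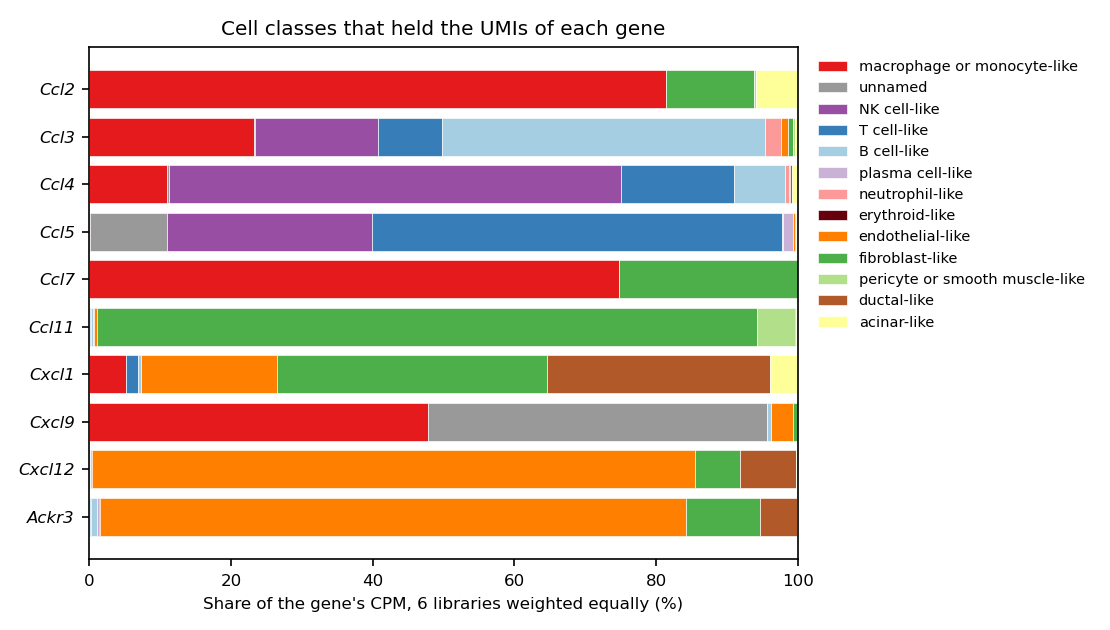
Each bar divides the summed CPM of 1 gene among cell classes, in percent, with the 6 libraries weighted equally. Cxcl12 and Ackr3 are mostly endothelial-like (85.2% and 82.8%) and Ccl11 is mostly fibroblast-like (93.1%), while Ccl3 and Cxcl1 are spread over several classes.

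The genes differed in how many cells carried them. Cxcl12 was read as 8934 UMIs in 1604 cells, Ackr3 as 1343 UMIs in 728 cells, Ccl5 as 15481 UMIs in 405 cells and Ccl11 as 1581 UMIs in 172 cells. In these 4 genes the cell with most UMIs held 0.728% to 3.61% of the total. The other 6 genes rested on few cells. Cxcl9 had 112 UMIs in 11 cells, 61.6% of them in 1 cell, and Ccl7 had 69 UMIs in 15 cells, 42.0% of them in 1 cell. Ccl2 had 91 UMIs in 16 cells, Ccl4 771 UMIs in 101 cells, Ccl3 441 UMIs in 89 cells and Cxcl1 88 UMIs in 37 cells, and the first cell of each held 35.2%, 30.9%, 25.6% and 18.2%. A change of these 6 genes between libraries can therefore be that of 1 or a few cells. Within a class the other 4 can rest on few cells too: 1 fibroblast-like cell held 30 of the 136 Ackr3 UMIs of that class.

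**Figure D2:**
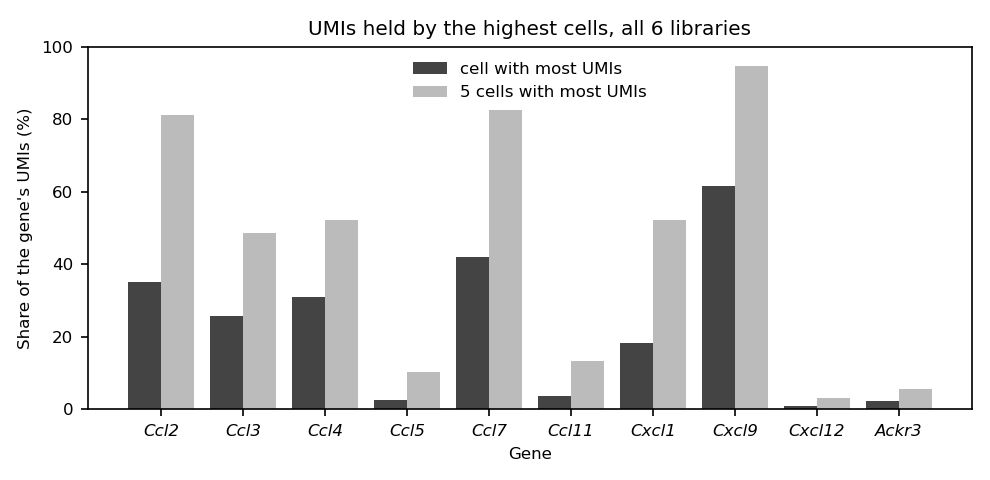
For each gene, the share in percent of its UMIs over all 6 libraries that lies in the cell with most UMIs (dark) and in the 5 cells with most UMIs (light). For Cxcl9, Ccl7 and Ccl2 the 5 cells hold 94.6%, 82.6% and 81.3%, and for Cxcl12 they hold 3.03%.

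Cxcl12 was highest in endothelial-like cells after pancreatitis. Its level there was 1725 CPM in EYFP positive run 3 and 1962 CPM in EYFP negative run 3, against 1321 and 689 CPM in EYFP positive runs 1 and 2 and 971 and 1032 CPM in EYFP negative runs 1 and 2. Both pancreatitis libraries lay above all 4 homeostasis libraries. The log2 fold change, pancreatitis over homeostasis, was 0.89 ± 0.28 (SE, 6 libraries, edgeR). Without the shallower copies of shared barcodes the levels were 1725 and 1962 CPM in the pancreatitis libraries and 697 to 1321 CPM in the homeostasis libraries. EYFP positive over EYFP negative gave a log2 fold change of -0.06 ± 0.27 (SE), and the values of both labels overlapped within homeostasis.

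Endothelial-like cells formed 4 clusters, and the order held in each. Cluster 2, with the highest summed level of the artery list (4646 CPM, against 611 to 840 CPM in the other endothelial-like clusters), had the highest Cxcl12 at 2093 CPM over all libraries. In it Cxcl12 reached 3006 and 3253 CPM in EYFP positive and EYFP negative run 3, against 1153 to 2169 CPM in the homeostasis libraries. Cluster 3 gave 1761 and 1948 CPM after pancreatitis, against 570 to 1107 CPM in homeostasis. Cluster 0, the shallowest with a median of 867 UMIs per cell, gave 1205 and 1275 CPM after pancreatitis, against 292 to 988 CPM in homeostasis. In cluster 4 the margin was smallest, with 1274.49 and 1653 CPM after pancreatitis and 621 to 1274.13 CPM in homeostasis. EYFP positive run 3 holds only 3 to 12 cells per cluster, and in cluster 4 EYFP positive run 2 holds 7, so these values are uncertain. With the 4 clusters weighted alike in every library, Cxcl12 was 1819 and 2054 CPM in the pancreatitis libraries and 773 to 1275 CPM in the homeostasis libraries.

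**Figure D3:**
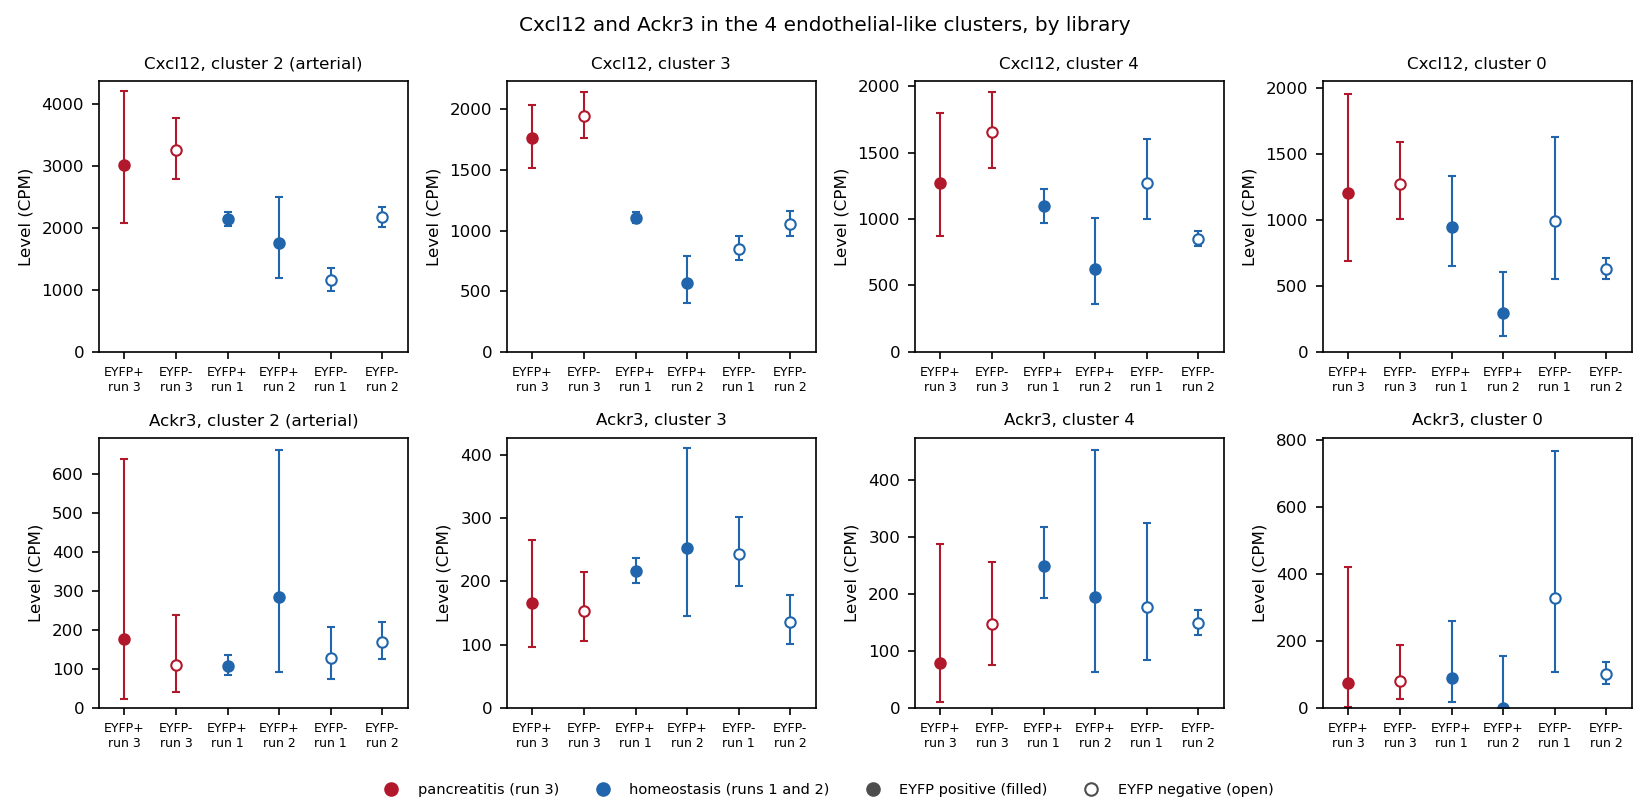
Level in CPM of Cxcl12 (upper row) and Ackr3 (lower row) in the 4 endothelial-like clusters, 1 point per library, with 95% Poisson intervals that cover counting error only. Pancreatitis libraries (run 3) are in red and homeostasis libraries in blue; EYFP positive points are filled and EYFP negative points open. In all 4 clusters both pancreatitis points of Cxcl12 lie above the homeostasis points, and in none do those of Ackr3.

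The share of endothelial-like cells with a Cxcl12 UMI was 71.6% of 1794 cells, at a median of 3219 UMIs per cell. It was 0.372% of T-like cells and 1.03% of B-like cells, at medians of 5911.5 and 4780 UMIs. The level of free RNA was not measured, so whether such low shares are free RNA was not tested. Thinned to 1000 UMIs per cell, Cxcl12 was seen in 19 of 26 and 72 of 104 cells in EYFP positive and EYFP negative run 3. In homeostasis it was seen in 333 of 547 cells in EYFP positive run 1, 12 of 30 in EYFP positive run 2, 62 of 133 in EYFP negative run 1 and 348 of 665 in EYFP negative run 2.

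Other features of the endothelial-like cells differed between the libraries too. The summed level of the immediate-early and dissociation list was 4546 and 6272 CPM in EYFP positive and EYFP negative run 3, against 9044 and 10786 CPM in EYFP positive runs 1 and 2 and 9956 and 5216 CPM in EYFP negative runs 1 and 2. The 9 erythroid markers summed to 466 and 15131 CPM in EYFP positive and EYFP negative run 3 and to 130 to 1859 CPM in homeostasis, with 1 to 5 of them at 0 in each library. Without EYFP negative run 3 the log2 fold change of Cxcl12 was 0.80. The part of the immediate-early list in the Cxcl12 difference was not tested. The 14 fibroblast markers, whose class also carries Cxcl12, summed to 6.56 and 65.3 CPM in EYFP positive and EYFP negative run 3 and to 5.90 to 102 CPM in homeostasis.

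Ackr3 shared its main class with Cxcl12 but not its change. It stood at 144 and 135 CPM in endothelial-like cells of EYFP positive and EYFP negative run 3, against 195 and 199 CPM in EYFP positive runs 1 and 2 and 211 and 141 CPM in EYFP negative runs 1 and 2. The groups overlapped, since EYFP negative run 2 was between both pancreatitis libraries. Without the shallower copies of shared barcodes the levels were 144 and 135 CPM after pancreatitis and 141 to 211 CPM in homeostasis. The log2 fold change was -0.37 ± 0.26 (SE, 6 libraries) for pancreatitis over homeostasis and 0.14 ± 0.24 (SE) for EYFP positive over EYFP negative. Neither Cxcl12 nor Ackr3 was among the genes called at an adjusted p under 0.05 (edgeR quasi-likelihood test, Benjamini-Hochberg adjustment), which were 3 of 7180 genes (0.0418%) for pancreatitis and 1 of 6647 genes (0.015%) for the EYFP label (2 with run as a block).

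Pooled over libraries, the receptor and its ligand peaked in different endothelial-like clusters. Ackr3 was highest in cluster 3, at 205 CPM and in 54.4% of 588 cells. It was 166 CPM in cluster 4 (34.6% of cells), 129 CPM in the artery-rich cluster 2 and 98.8 CPM in cluster 0. EYFP positive run 1 gave 337 of the cluster 3 cells, and EYFP negative run 2 gave 355 of the 488 cluster 4 cells. Median depths in clusters 3 and 4 were 5081.5 and 3048.5 UMIs. Thinned to 1000 UMIs per cell, 16.8% and 12.8% of their cells had Ackr3. Over libraries with at least 10 cells, their means were 195 CPM (SD 50) and 181 CPM (SD 48). Clusters 3 and 4 are therefore not set apart for Ackr3. In cluster 4 alone both pancreatitis libraries, at 79.7 to 147 CPM, lay below all homeostasis libraries, at 149 to 250 CPM. Ackr3 was read in 35.4% of all endothelial-like cells and in 0.372% of T-like cells. Cxcl12 was found in 92.0% of the 301 cells of cluster 2 and in 85.7% of those of cluster 3. Both genes were read together in 519 cells. That is 40.4% of the 1285 cells with a Cxcl12 UMI, while 22.8% of the cells without one had Ackr3; cells with Cxcl12 were also deeper, at a median of 3852 against 1289 UMIs.

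Outside the endothelium, Cxcl12 was read in 176 of 347 ductal-like cells. Its ductal level was 164 and 67.8 CPM in EYFP positive and EYFP negative run 3 and 108 to 168 CPM in homeostasis, so the groups overlapped. In fibroblast-like cells Cxcl12 was 273 and 366 CPM in EYFP positive and EYFP negative run 3, against 366 and 1266 CPM in EYFP positive runs 1 and 2 and 975 and 278 CPM in EYFP negative runs 1 and 2. The fibroblast log2 fold change, from the 3 EYFP negative libraries with at least 10 such cells, was -0.75 ± 0.51 (SE). Ackr3 in ductal-like cells ranged from 17.0 to 24.1 CPM after pancreatitis and from 5.31 to 19.5 CPM in homeostasis, on 60 UMIs in all.

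Ackr3 was nearly missing from the fibroblast-like cells of run 3. None of the 38 such cells of EYFP negative run 3 had an Ackr3 UMI, which allows up to 13.1 CPM, and EYFP positive run 3 had 1 UMI in 6 cells (21.0 CPM). In homeostasis it was 366 CPM in EYFP positive run 1, from 6 cells, 0 CPM in EYFP positive run 2, whose 5 cells allow up to 136 CPM, and 260 and 217 CPM in EYFP negative runs 1 and 2, from 27 and 88 cells. A single cell held 30 of the 40 Ackr3 UMIs of EYFP negative run 1. Its 260 CPM therefore rests mostly on that cell, and the summed counts below rest partly on it. Among EYFP negative libraries the level after pancreatitis was at least 17.5-fold lower, with 0 UMIs against 122 UMIs in 26 of 115 homeostasis cells. Over all libraries the ratio was 0.0158 (95% interval 0.000397 to 0.0894, counting error only).

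The Ackr3 reads of fibroblast-like cells came almost wholly from cells that also had Pi16, a marker of adventitial fibroblasts, which was singled out after its values were seen. Ackr3 was read in 25 of 43 cells with a Pi16 UMI (129 UMIs) and in 6 of 127 cells without one (7 UMIs), at median depths of 5479 and 3600 UMIs. Pi16 was read in 3 of 6 and 2 of 38 fibroblast-like cells of EYFP positive and EYFP negative run 3. In homeostasis it was read in 3 of 6 cells of EYFP positive run 1, 0 of 5 of EYFP positive run 2, 7 of 27 of EYFP negative run 1 and 28 of 88 of EYFP negative run 2. Fewer cells of that kind and less Ackr3 in each of them cannot be told apart with the 2 Pi16-bearing cells of EYFP negative run 3. The fibroblast-like cells of EYFP negative run 3 also had 40046 CPM of the 9 erythroid markers, against 52.0 and 1280 CPM in EYFP negative runs 1 and 2; its part in the result was not tested.

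Ccl11 was the fibroblast chemokine with most reads, found in 126 of 170 fibroblast-like cells. It stood at 966 and 1453 CPM in EYFP positive and EYFP negative run 3, against 507 and 1628 CPM in EYFP positive runs 1 and 2 and 1423 and 2102 CPM in EYFP negative runs 1 and 2. These ranges overlapped, and the log2 fold change in the EYFP negative libraries was -0.38 ± 0.56 (SE). Pericyte or smooth muscle-like cells were the other place where it was read, with 107 UMIs in 19 of 34 cells. Ccl11 was read in 0.613% of endothelial-like cells, at a median of 3219 UMIs against 4063 UMIs in the fibroblast-like cells. Whether these reads are free RNA was not tested.

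Ccl7 was higher in the fibroblast-like cells of EYFP negative run 3 than in those of EYFP negative runs 1 and 2, through 3 cells. It was 0 and 166 CPM in EYFP positive and EYFP negative run 3, against 0 CPM in both EYFP positive libraries and 13 and 18.5 CPM in EYFP negative runs 1 and 2. A single cell held 29 of the 38 UMIs of EYFP negative run 3, and without it the level was 40.3 CPM, above EYFP negative runs 1 and 2. The 0 counts of EYFP positive runs 3, 1 and 2, from 5 or 6 cells each, allow up to 63.0, 84.5 and 136 CPM, so these libraries cannot be set against it. The ratio of the summed counts, pancreatitis over homeostasis in the EYFP negative libraries, was 9.80 (95% interval 4.66 to 23.1, counting error only). All 10 fibroblast-like cells with Ccl7 also had Ccl11, and 3 of them had Ccl2.

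Of the 10 genes, 6 were tested in the fibroblast-like cells of the EYFP negative libraries, 1 pancreatitis library against 2 of homeostasis. Ccl7 (log2 fold change 3.16 ± 0.56, SE) and Ackr3, for which the fitted value is no bound, were among the 79 of 5270 genes called (1.5%, edgeR quasi-likelihood test); since the genes had been selected on their change, nothing is read from that count. With DESeq2 11 genes were called, and with no filter on low counts 0. In the same fit and by the same edgeR test Socs3, a feedback inhibitor of cytokine signalling, was lower in EYFP negative run 3, with a log2 fold change of -2.15 ± 0.59 (adjusted p = 0.0209). The heat shock genes Hspa1a and Hspa1b were higher there by edgeR, at 1.89 ± 0.47 (adjusted p = 0.00657) and 1.65 ± 0.46 (adjusted p = 0.0278) on the log2 scale, while of the 14 genes of their immediate-early and dissociation list that were tested 7 were above 0 and 7 below. All 3 calls were lost with DESeq2 and with no filter. The lone pancreatitis library is assumed to vary like the others, so these p-values rest on the spread between the 2 homeostasis libraries, moderated across genes.

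**Figure D4:**
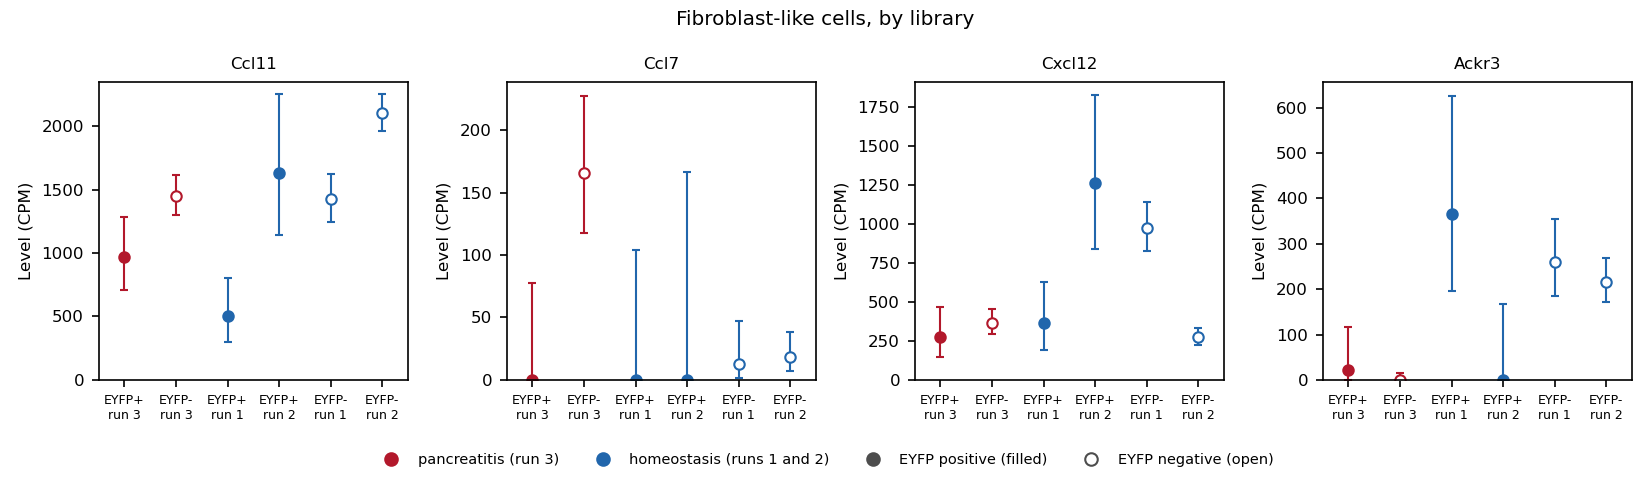
Level in CPM of Ccl11, Ccl7, Cxcl12 and Ackr3 in fibroblast-like cells, 1 point per library, with 95% Poisson intervals that cover counting error only; colours and fills mark state and EYFP label. Ackr3 is at 0 and 21.0 CPM in the run 3 libraries and at 217 to 366 CPM in 3 of the 4 homeostasis libraries, and Ccl7 is at 166 CPM in EYFP negative run 3, against 13 and 18.5 CPM in EYFP negative runs 1 and 2.

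Cxcl1 and Ccl2 were read in very few fibroblast-like cells. Cxcl1 was 0 and 34.9 CPM in EYFP positive and EYFP negative run 3, against 0 CPM in both EYFP positive libraries and 143 and 15.9 CPM in EYFP negative runs 1 and 2. Its 36 fibroblast UMIs lay in 8 cells, and the log2 fold change was -0.90 ± 0.67 (SE). A further 21 Cxcl1 UMIs were in ductal-like cells and 19 in endothelial-like cells, where it was 0 CPM in both run 3 libraries, 4.26 and 15.3 CPM in EYFP positive runs 1 and 2 and 0 and 1.79 CPM in EYFP negative runs 1 and 2. Ccl2 gave 0 and 26.2 CPM in fibroblast-like cells of EYFP positive and EYFP negative run 3, against 0 CPM in both EYFP positive libraries and 97.5 and 5.29 CPM in EYFP negative runs 1 and 2.

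In macrophage or monocyte-like cells, 106 in all, Ccl2 was 159 and 0 CPM in EYFP positive and EYFP negative run 3, against 24.5 and 680 CPM in EYFP positive runs 1 and 2 and 0 and 62.3 CPM in EYFP negative runs 1 and 2. The groups overlapped, and the highest value was that of 1 of the 4 such cells of EYFP positive run 2. Without the cell with most UMIs in each library, Ccl2 was 10.6 CPM in EYFP positive run 3, 36.0 CPM in EYFP negative run 2 and 0 CPM in the other libraries. Ccl7 followed it, with 46.6 and 0 CPM in EYFP positive and EYFP negative run 3, 24.5 and 298 CPM in EYFP positive runs 1 and 2 and 0 and 8.90 CPM in EYFP negative runs 1 and 2. Of the 5 cells with Ccl7, 4 also had Ccl2. Without the shallower copies of shared barcodes EYFP negative run 2 was at 49.8 CPM for Ccl2 and at 0 CPM for Ccl7.

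Ccl3 in macrophage or monocyte-like cells was 252 and 57.3 CPM in EYFP positive and EYFP negative run 3, against 49.0 and 128 CPM in EYFP positive runs 1 and 2 and 146 and 111 CPM in EYFP negative runs 1 and 2. EYFP positive run 3 was the highest and EYFP negative run 3 the second lowest of the 6. Ccl4 was 18.7 and 45.8 CPM in EYFP positive and EYFP negative run 3, against 686 and 21.3 CPM in EYFP positive runs 1 and 2 and 195 and 49.0 CPM in EYFP negative runs 1 and 2, the highest being 28 UMIs of a single cell. In the 3 EYFP negative libraries the log2 fold change was -1.28 ± 0.70 (SE) for Ccl3 and -1.37 ± 1.19 (SE) for Ccl4, and both turned positive, 0.96 and 2.40, when the cells were clustered with chemokine-system genes. No gene was called there, 0 of 1846 (0%) with edgeR, with 49 genes at an unadjusted p under 0.05, and DESeq2 called 1.

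Ccl3 had been put in B-like cells by its source share, and the cells went against that label. Its B-like level was 0 and 25.7 CPM in EYFP positive and EYFP negative run 3, against 28.5 and 7.67 CPM in EYFP positive runs 1 and 2 and 175 and 18.0 CPM in EYFP negative runs 1 and 2. Of the 203 UMIs, 179 lay in 4 of the 972 B-like cells, 2 of them in EYFP negative run 3 and 1 each in EYFP positive and EYFP negative run 1. These 4 cells had 0 UMIs of Cd79a, Cd79b, Ms4a1 and Cd74, the B cell antigen receptor, surface and antigen presentation genes.

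The same 4 cells carried Ms4a2 (4 to 6 UMIs), a chain of the high-affinity IgE receptor, and Cpa3 (1 to 50 UMIs), a mast cell and basophil protease. Both genes are on the mast cell list, 2 to 4 of whose 6 markers were detected in each cell, and the cells were picked out after their values were seen. Kit, also on that list, had 14 UMIs in the cell of EYFP positive run 1 and 0 in the rest. Mcpt8, which is not on it, had 45 UMIs in the same cell, 4 and 0 in those of EYFP negative run 3 and 0 in that of EYFP negative run 1. Whether the cells are mast cells or basophils was not tested. Together the 4 cells held 40.6% of all Ccl3 UMIs. The other 968 B-like cells had 24 Ccl3 UMIs in 6 cells, at 0 and 0 CPM in EYFP positive and EYFP negative run 3 and at 0 to 18.0 CPM in homeostasis. When the cells were clustered with chemokine-system genes, the B-like share of Ccl3 was 4.15%. That clustering could draw on Ccl3 itself, so nothing about the identity of these cells is read from it.

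In the B-like cells Ccl3 was not called, beside 25 of 5809 genes (0.43%) for pancreatitis and 5 of 5210 genes (0.096%) for the EYFP label (22 with run as a block). Its log2 fold change was -1.87 ± 0.72 (SE) for pancreatitis over homeostasis, and -6.07 without EYFP negative run 3, whose 62 UMIs all lay in 2 of the 4 cells named above. Of the 17 genes of the interferon-gamma response list that were tested in these cells, 0 were called by edgeR in either direction. All 17 had a log2 fold change below 0, pancreatitis over homeostasis, with a median of -0.49, against -0.015 over all genes tested.

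Ccl4 had its largest share in NK-like cells, but Ccl5 and the chemokine Xcl1 stood higher there, at 8607 and 1142 CPM over all libraries. Ccl4 was at 826 CPM over all libraries, with 569 UMIs in 51 of 120 cells. It was 280 and 1030 CPM in EYFP positive and EYFP negative run 3, against 0 CPM in both EYFP positive libraries, from 7 and 1 cells, and 1054 and 43.9 CPM in EYFP negative runs 1 and 2, from 9 and 15 cells. EYFP negative runs 3 and 1 stood close together above the rest. A single cell held 238 of the 471 UMIs of EYFP negative run 3, and without it the level was 514 CPM. Without its own top cell, EYFP negative run 1 was at 256 CPM.

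Ccl3 in NK-like cells was 125 and 164 CPM in EYFP positive and EYFP negative run 3, against 0 CPM in both EYFP positive libraries and 311 and 65.8 CPM in EYFP negative runs 1 and 2. It was read in 41 NK-like cells, 28 of which also had Ccl4. All 51 NK-like cells with Ccl4 had Ccl5, as did 79.7% of those without it. Only 2 libraries held 10 or more NK-like cells, so no fit was possible.

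Ccl5 was carried by 3 groups of cells, NK-like cells (88.3% of cells), T-like cells (28.3%) and the unnamed cluster (71.2%). It was found in 2.29% of endothelial-like and 1.75% of B-like cells, where a part from free RNA was not tested. Their medians were 3219 and 4780 UMIs, against 5769 in NK-like and 5911.5 in T-like cells. In NK-like cells Ccl5 stood at 7075 and 10077 CPM in EYFP positive and EYFP negative run 3, against 164 and 0 CPM in EYFP positive runs 1 and 2 and 6730 and 7937 CPM in EYFP negative runs 1 and 2. The EYFP positive homeostasis values rest on 7 cells and 1 cell. The EYFP negative library of run 3 lay above both other EYFP negative libraries, with a ratio of summed counts of 1.40 (95% interval 1.30 to 1.51, counting error only).

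In T-like cells Ccl5 was 4284 and 2925 CPM in EYFP positive and EYFP negative run 3, against 1031 and 3002 CPM in EYFP positive runs 1 and 2 and 2586 and 1381 CPM in EYFP negative runs 1 and 2. The groups overlapped, because EYFP positive run 2 was above EYFP negative run 3. The log2 fold change was 0.71 ± 0.41 (SE, 6 libraries) for pancreatitis over homeostasis and 1.19 without EYFP positive run 2. For EYFP positive over EYFP negative it was 0.18 ± 0.40 (SE), with -0.40 without EYFP positive run 2 and 0.59 without EYFP positive run 1. Without the shallower copies of shared barcodes Ccl5 was 4284 and 2926 CPM after pancreatitis and 1033 to 3002 CPM in homeostasis. Ccl5 was not called, beside 33 of 4774 genes (0.691%) for pancreatitis. For the EYFP label 0 of 4145 genes (0%) were called with edgeR, with 217 at an unadjusted p under 0.05; DESeq2 called 1 and edgeR with run as a block 9.

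The 3 T-like clusters differed widely in Ccl5. Cluster 8, with the highest Cd8a and Cd8b1 (361 and 803 CPM), held 6932 of the 7719 T-like UMIs. There Ccl5 was 8769 and 6541 CPM in EYFP positive and EYFP negative run 3, from 13 and 81 cells, against 3902 and 4576 CPM in EYFP positive runs 1 and 2 and 3917 and 2837 CPM in EYFP negative runs 1 and 2, from 11 to 60 cells. Both pancreatitis libraries lay above all homeostasis libraries in this cluster. Cluster 16, with the highest Ctla4 (222 CPM), had 74.5 and 1124 CPM in EYFP positive and EYFP negative run 3, from 10 and 93 cells. EYFP positive runs 1 and 2 had 0 CPM there, from 21 and 2 cells. EYFP negative runs 1 and 2 had 2081 and 35.4 CPM, from 13 and 22 cells. Cluster 14, with the highest Lef1 (587 CPM), a transcription factor of naive T cells, had 0 CPM in both run 3 libraries and 0 to 142 CPM in homeostasis. EYFP positive and EYFP negative run 3 held 4 and 59 of its cells, and EYFP positive runs 1 and 2 held 5 and 7. The 15 NK markers summed in T-like cells to 1758 and 1651 CPM in EYFP positive and EYFP negative run 3 and to 772 to 1688 CPM in homeostasis, lowest in EYFP positive run 1, where Ccl5 was lowest too. The immediate-early list summed to 11969 and 9302 CPM in EYFP positive and EYFP negative run 3 and to 2812 to 9747 CPM in homeostasis. All 15 of its genes tested in T-like cells had a log2 fold change above 0, pancreatitis over homeostasis. Of the 15, 2 were called higher, Rhob and Klf6 (edgeR, adjusted p = 0.00707 and 0.0193). The part of either list in the Ccl5 values was not tested.

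**Figure D5:**
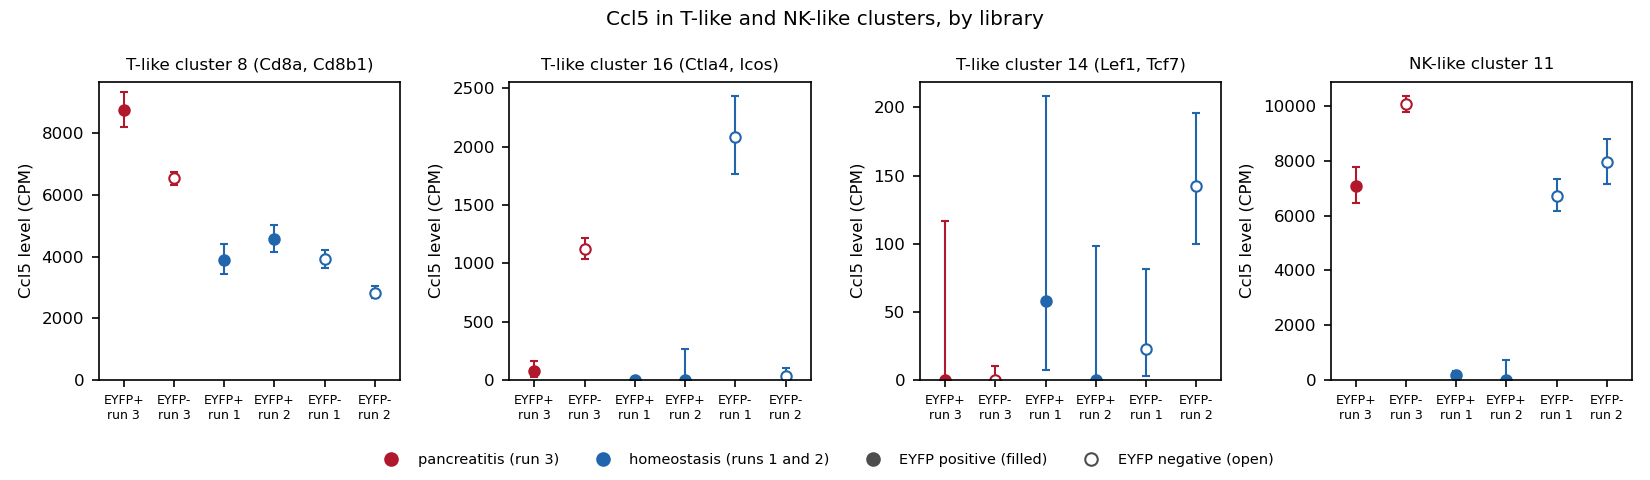
Level of Ccl5 in CPM in the 3 T-like clusters and the NK-like cluster, 1 point per library, with 95% Poisson intervals that cover counting error only; axes differ between panels, and colours and fills mark state and EYFP label. In cluster 8 the pancreatitis libraries are at 8769 and 6541 CPM and the homeostasis libraries at 2837 to 4576 CPM. The other T-like clusters show no such order, but some of their points rest on as few as 2 cells (cluster 16) or 4 cells (cluster 14).

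The unnamed cluster held 1394 Ccl5 UMIs in 37 of its 52 cells and had 1 cell in EYFP positive run 3 and 0 in EYFP negative run 3, so it gives no pancreatitis level. Of the dendritic cell list, Flt3 was read in 28 of its cells and Fscn1 in 34, and all 158 UMIs of Ccl22, a chemokine of mature dendritic cells, lay in it. It kept no name, since too few listed markers led it. A single cell of the plasma-like cluster held 310 Ccl5 UMIs; it had 2 of 14 plasma markers and 13 T cell markers.

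Cxcl9 was read only in the EYFP negative homeostasis libraries. It had 0 UMIs in EYFP positive and EYFP negative run 3, which allows up to 1.34 and 0.310 CPM over all kept cells. EYFP positive runs 1 and 2 also had 0 UMIs, and EYFP negative runs 1 and 2 had 33 and 79 UMIs (12.0 and 11.6 CPM). Of the 79, 69 lay in 1 cell of the unnamed cluster, and of the 33, 31 lay in 1 macrophage or monocyte-like cell. The unnamed cluster was nearly empty in run 3, as given above, while macrophage or monocyte-like cells numbered 7 and 20 in EYFP positive and EYFP negative run 3.

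The receptors of these chemokines were read in several classes, some of them also sources of the ligands. Ccr2, the receptor of Ccl2 and Ccl7, was highest in macrophage or monocyte-like cells at 871 CPM and next in NK-like cells at 552 CPM. Ccr1, which binds Ccl3 and Ccl5, was highest in macrophage or monocyte-like cells at 81.5 CPM. Cxcr3, the receptor of Cxcl9, was at 148 CPM in NK-like and 116 CPM in T-like cells. Cxcr4, the receptor of Cxcl12, was highest in macrophage or monocyte-like cells at 127 CPM, and endothelial-like cells held 26.2% of its 841 UMIs. Cxcr2, the receptor of Cxcl1, had 35 UMIs, 60.0% of them in 8 neutrophil-like cells, and Ccr3, the receptor of Ccl11, had 9 UMIs.

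Other genes of the chemokine system were read beside these. Of 29 other chemokines listed, 28 were in the feature tables, 4 had no UMI and 16 had at least 20 UMIs, 7 of them most in macrophage or monocyte-like cells. Of 19 receptors, 14 had at least 20 UMIs. By total UMIs, which also follow the number of cells in a class, B-like cells led for 5 and T-like cells for 4. By CPM among the larger classes, Ccr6 and Cxcr5 stayed highest in B-like cells and Ccr4 and Cxcr6 in T-like cells. Of the others, Ccr1 and Cxcr4 were highest in macrophage or monocyte-like cells, Ccr7 and Ccr9 in the unnamed cluster and Cxcr3 in NK-like cells. Ccrl2, an atypical receptor-like protein, was 83.4% endothelial-like, as was 88.5% of Cx3cl1, and Ackr4, an atypical receptor that scavenges Ccl19, Ccl21 and Ccl25, was 89.7% fibroblast-like.

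Of all genes tested in T-like cells 0.691% were called. Xcl1, a chemokine that attracts cross-presenting dendritic cells, was the 1 other chemokine tested there and rose, with 142 and 109 CPM in EYFP positive and EYFP negative run 3 against 26.6 and 13.3 CPM in EYFP positive runs 1 and 2 and 60.8 and 21.7 CPM in EYFP negative runs 1 and 2. Its log2 fold change was 1.83 ± 0.36 (SE, adjusted p = 0.0210, edgeR quasi-likelihood test), higher in both pancreatitis libraries than in all 4 of homeostasis. The call was lost with DESeq2 (adjusted p = 0.0869), with stricter cell filters (adjusted p = 0.0843), and without EYFP positive run 3 (adjusted p = 0.225), EYFP negative run 3 (adjusted p = 0.0531) or EYFP negative run 2 (adjusted p = 0.0861). Most Xcl1 was in NK-like cells, with 76.8% of its UMIs at 1142 CPM, against 22.8% in T-like cells at 75.8 CPM. The part of the NK markers read in T-like cells, given above, in the Xcl1 values was not tested. Of the 6 receptors tested in T-like cells edgeR called 0 in either direction; Cxcr3 had a log2 fold change of 1.08 ± 0.26 (adjusted p = 0.0859) and Ccr7, which guides naive T cells to lymph nodes, one of -1.44 ± 0.37 (adjusted p = 0.135).

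In fibroblast-like cells, where 1.5% of all genes tested were called, 2 other chemokines were tested and 1 was called, Cxcl14, a chemokine of skin and stroma. It was higher in the 1 pancreatitis library of the fit, at 768 CPM in EYFP negative run 3, against 182 and 262 CPM in EYFP negative runs 1 and 2, with a log2 fold change of 1.67 ± 0.47 (SE, adjusted p = 0.0309, edgeR quasi-likelihood test). The call was lost with DESeq2 (adjusted p = 0.386) and with no filter on low counts (adjusted p = 0.860). EYFP positive run 3, which was not in the fit, had 147 CPM from 6 cells, between EYFP positive run 1 at 225 CPM and EYFP positive run 2 at 90.5 CPM. By the same edgeR test Cxcr4, the signalling receptor of Cxcl12, had a log2 fold change of -1.57 ± 0.44 in B-like cells (adjusted p = 0.219) and one of -0.79 ± 0.33 in T-like cells (adjusted p = 0.699) and was called in neither. In endothelial-like cells its log2 fold change was -0.58 ± 0.45 (SE), and 0.05 without EYFP negative run 3. In macrophage or monocyte-like cells, 0 of 6 other chemokines and 0 of 5 receptors tested were called by edgeR; Cxcl16 had the lowest p, with a log2 fold change of -1.77 ± 0.61 (adjusted p = 0.967).

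The genes most like each of the 10 were ranked by Pearson's r of log2(CPM + 10) over 45 class-by-library sums from 12 classes, among 12816 genes; sums of 1 library share its depth, and r is a description only. Ccl11 was most like C1s1 (r = 0.99), Olfml2b (0.99) and Dact1 (0.99), and Cxcl12 most like Ptprg (0.96), Pls3 (0.95) and Wwtr1 (0.95). Ccl5 was most like Cd7 (0.93), Il7r (0.93) and Klrd1 (0.91), and Ackr3 most like Hmcn1 (0.89), Lims2 (0.89) and Kank4 (0.89). Ccl7 was most like Cxcl14 (0.92), Gm10600 (0.92) and Fbn2 (0.90). Members paired with each other in 2 cases, Ccl3 with Ccl4 (0.84) and Ccl2 with Cxcl1 (0.79). The lowest values were those of Cxcl9, with H2-M2 (0.74), Lilra6 (0.74) and Guca1a (0.71).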

How the data were processed

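UMI counts per gene and cell were measured by droplet single-cell RNA sequencing. Per the submitters' processing notes the authors made the deposited counts with Cell Ranger 2.1.0; the file headers name software version 3.1.0, the notes name the build GRCh38, and the mouse build and read filters are not given in the sources used here. The members and lists were chosen with earlier results of these data known.

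Barcodes with fewer than 200 genes (2977), over 20% mitochondrial UMIs (676) or a Scrublet doublet call (41) were removed. Cells of all libraries were clustered together with scanpy 1.11.5 (2000 variable genes without the chemokine-system genes, 30 components, 15 neighbours, Leiden resolution 1). Clusters were named from marker lists; as the names were rebuilt here, the class of a gene may differ from the study's. CPM were computed per class and library, with 95% Poisson intervals; a count of 0 is given the limit of 3 counts, and both cover counting error only. Shares were also computed after thinning cells to 1000 UMIs.

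Counts were summed per library and class (at least 10 cells) and tested with edgeR 4.0.16 (TMM, quasi-likelihood F test, two-sided, Benjamini-Hochberg adjustment over all genes tested, threshold 0.05), with EYFP label or state as covariate. Only the 3 EYFP negative libraries reached 10 macrophage or monocyte-like and fibroblast-like cells. The script was tested on simulated counts. Alternatives were DESeq2 1.42.0, its size factors, no filter, stricter cells, clustering with chemokine genes, leaving out libraries, and a replicate block by run. The labels share run numbers between the EYFP positive and EYFP negative libraries; as a check of pairing, run 1 minus run 2 correlated between labels across genes with r = 0.19 in B-like, 0.20 in T-like and 0.40 in endothelial-like cells. Genes outside the members were named by a fixed rule: genes called or of lowest p in each list, receptors of the members, the leading class of well-read genes, and the 3 genes most like each member. Pi16, Ms4a2, Cpa3, Kit, Mcpt8, Flt3, Fscn1, the sex genes and the T-like cluster markers were picked after their values were seen. Some results on single genes are not reported here.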

Additional observations from a re-analysis of the deposited data

Results flagged for a closer look

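Ccl3 in B-like cells stood at 175.24 CPM in EYFP negative run 1, far from the other 3 homeostasis libraries. Of its 115 UMIs there, 113 came from 1 of the 4 cells without B cell markers described above. Chance alone sets apart about 5% of such groups. Barcodes removed by the cell filters also held reads of all 10 genes, which no level above includes. Of Ccl7, 69 of the 70 deposited UMIs were kept and of Cxcl1 88 of 91, a loss within the limit of 3 counts. The other 8 lost more: 5 UMIs of Ccl2, 11 of Ccl3, 10 of Ccl4, 370 of Ccl5, 32 of Ccl11, 7 of Cxcl9, 75 of Cxcl12 and 20 of Ackr3.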

How the results depend on the processing

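For pancreatitis in macrophage or monocyte-like cells (0), the count was 1 with DESeq2, 16 with no filter on low counts and 1 when clustered with chemokine genes. In B-like cells (25) it was 121 with no filter, 127 in the EYFP negative libraries only and 2 to 91 as libraries were left out. In T-like cells (33) it was 15 with DESeq2, 105 with no filter, 56 in the EYFP negative libraries only and 11 to 64 as libraries were left out. In fibroblast-like cells (79) it was 11 with DESeq2 and 0 with no filter, and in endothelial-like cells (3) it was 5 with DESeq2, 72 with no filter, 42 in the EYFP negative libraries only and 2 to 10 as libraries were left out. Among the libraries left out, EYFP negative run 3 gave the lowest counts in B-like and T-like cells and EYFP positive run 2 the highest.

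For the EYFP label the count was 42 with no filter, 22 with the replicate block and 0 to 11 as libraries were left out in B-like cells (5). It was 1 with DESeq2, 82 with no filter, 9 with the replicate block and 1 to 29 as libraries were left out in T-like cells (0), and 34 with no filter, 2 with the replicate block and 1 to 5 as libraries were left out in endothelial-like cells (1). The replicate block changed no other call, and the cause of these shifts was not tested.

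The B-like share of Ccl3 was 4.15% when clustered with chemokine genes, against 45.7%. All 60 source shares with a library left out, and 29 of 30 under other settings, stayed within the spread between libraries. Of the members' log2 fold changes, 41 of 47 did so with a library left out and 111 of 113 otherwise. For source shares that spread was wide in genes read in few cells. As libraries were left out, the macrophage or monocyte-like share of Ccl7 ran from 32.2% to 90.5%. The unnamed-cluster share of Cxcl9 ran from 6.06% to 91.1%. The fibroblast-like share of Cxcl1 ran from 9.96% to 55.6% and the B-like share of Ccl3 from 20.1% to 53.2%. The fibroblast-like share of Ccl11 stayed at 92.2% to 94.0% and the endothelial-like share of Cxcl12 at 77.9% to 88.3%. Thinned to 1000 UMIs, the mean share of endothelial-like cells with a UMI was 57.0% for Cxcl12 and 14.5% for Ackr3. Cxcr4 in endothelial-like cells reversed, with log2 fold changes of -1.004 to 0.046 as libraries were left out. Leaving out shared barcodes or the top cell of a member was chosen after seeing the data. The few fibroblast-like, macrophage or monocyte-like and NK-like cells limit what can be seen: 3 counts equal 7.93 to 135.7 CPM in fibroblast-like and 6.56 to 590.4 CPM in NK-like cells.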
